A study of Homo sapiens with 10 samples.

Results

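Coding positions at which C-to-U edits were read in more than 1 transcript of the same gene were compared in MDA-MB-231 cells, a human triple-negative breast cancer line. A position was taken when the same library listed it, by chromosome, coordinate and strand, under 2 or more transcripts of 1 gene. This held for 11586 of the 347819 positions of the 4 MDA-MB-231 libraries, in 1937 genes, and the whole series of 10 libraries lists 461800 positions. The line carried a doxycycline-inducible Ribo-STAMP vector, a fusion of the cytidine deaminase APOBEC1 to the small-subunit ribosomal protein RPS2, and all 4 libraries came from cells given 1 ug/mL doxycycline for 48 h. The 2 treated libraries came from cells also given 100 uM cobalt(II) chloride (CoCl2) for 48 h, used to induce hypoxia, and the 2 untreated libraries (labelled NT) from cells without it. Whether the line is 1 clone, and whether the replicates were separate cultures, is not given in the sources used here. A limma or permutation p-value here therefore reflects only how far these libraries spread. A Fisher's exact p-value compares reads within 1 library and holds no spread between libraries. No MDA-MB-231 library with the unfused deaminase was analysed here, so editing without the ribosome fusion was not measured in this line.

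In Ribo-STAMP the deaminase travels with the ribosome and converts cytidines of the messenger RNA it is on to uridines, so that edits accumulate on translated transcripts. Many human genes make several messenger RNAs from 1 locus, through other promoters, splice sites or poly(A) sites, and these can share a coding sequence while their untranslated ends differ. A long read that spans the whole molecule carries its edits together with its isoform, and at a position that both isoforms contain the local sequence is the same for both.

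Reads on the listed isoforms, the stand-in for depth, numbered 1137588 and 1135885 in the untreated and 1204721 and 1120240 in the CoCl2 libraries. All 12 marker genes of MDA-MB-231 were listed in the 4 libraries (summed coverage 8792 to 9585 reads). Of 7 luminal epithelial markers, ESR1, PGR, CDH1 and FOXA1 were listed in none, and the summed coverage of the list was 30 to 45 reads. The files list an entry only where at least 1 read is edited. No position was listed in all 4 libraries, and each of the 97 positions with 21 or more edited reads was listed in exactly 3, so the strongest positions lack a value in 1 library each.

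The windows of 41 bases below are centred on an edited position and read from the GENCODE 29 transcript (GRCh38). Capitals mark the edited C and the base before it. The first group holds the positions with the most edited reads over the isoforms, among genes whose pair of transcripts is in the annotation, and shows the sequence that isoforms have in common where the edit is best measured. They were chosen after their values were seen.
NME2, chr17:51171560, plus strand: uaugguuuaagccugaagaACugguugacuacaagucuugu
ALDOA, chr16:30069608, plus strand: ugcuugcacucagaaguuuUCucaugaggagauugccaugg
MYL6, chr12:56159681, plus strand: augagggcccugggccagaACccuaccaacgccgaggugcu
ILK, chr11:6609798, plus strand: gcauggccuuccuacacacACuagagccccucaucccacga
BCKDK, chr16:31110111, plus strand: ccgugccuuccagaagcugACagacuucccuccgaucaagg
The second group holds 1 position each of 4 genes whose transcripts differed in editing over the whole shared coding sequence, and of AP1M1, where the same position had a nominal difference in 2 libraries. These were also chosen after their values were seen. A single position need not follow the order of its gene. GLB1-201 had 3 of 127 reads edited and GLB1-203 1 of 18 in CoCl2 replicate 2, a lower share in GLB1-201, unlike the gene. HDLBP was also reversed in CoCl2 replicate 1 (1 of 30 in HDLBP-201, 2 of 30 in HDLBP-204). The PIGS and AMZ2 positions followed their genes where both paired isoforms were listed.
GLB1, chr3:32997098, minus strand: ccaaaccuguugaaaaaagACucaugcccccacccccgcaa
PIGS, chr17:28560139, minus strand: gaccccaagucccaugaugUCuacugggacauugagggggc
AMZ2, chr17:68256898, plus strand: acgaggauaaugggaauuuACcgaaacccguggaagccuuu
HDLBP, chr2:241229679, minus strand: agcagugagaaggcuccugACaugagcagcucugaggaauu
AP1M1, chr19:16209038, plus strand: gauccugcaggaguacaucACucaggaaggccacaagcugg
Each of these positions lies in a coding exon of the transcript used: exon 5 of 5 in NME2, 7 of 9 in ALDOA, 3 of 6 in MYL6, 10 of 13 in ILK, 5 of 12 in BCKDK, 16 of 16 in GLB1, 7 of 12 in PIGS, 7 of 7 in AMZ2, 28 of 28 in HDLBP and 5 of 12 in AP1M1. The base before the edited C was A in 8 of the 10 windows and U in ALDOA and PIGS.

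Positions read in several isoforms made up 2.72% of the listed positions in untreated replicate 1 (3670 of 134694, exact Clopper-Pearson 95% interval 2.64 to 2.81%). The share was 2.44% in untreated replicate 2 (3008 of 123376, 2.35 to 2.53%), 2.94% in CoCl2 replicate 1 (3702 of 125825, 2.85 to 3.04%) and 2.67% in CoCl2 replicate 2 (3108 of 116253, 2.58 to 2.77%). The groups overlapped, with means of 2.58 ± 0.203% untreated and 2.81 ± 0.190% with CoCl2 (SD, n = 2 each, exact permutation p = 0.667, two-sided, where 2 against 2 cannot go below 0.33). Almost all stood under exactly 2 transcripts (3536, 2886, 3525 and 2980 positions in untreated replicates 1 and 2 and CoCl2 replicates 1 and 2), and the most at any position was 5. The intervals allow for counting error alone, as several reads may come from 1 molecule.

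Such positions recurred more often than other positions, but the rule itself favours this. A position listed in more libraries has more chances to meet the rule in 1 of them. Of the 11586 positions, 45.3% were listed in 3 libraries under any isoform, against 10.3% of the 336233 other positions, and they held a median of 4 edited reads over the 4 libraries, against 1. A position under 2 transcripts holds at least 2 edited reads in its library by construction, so that these positions were better measured from the start. The other positions were not matched for edited reads here, so the 2 shares do not show a trait of the several-isoform positions. The double listing itself recurred less: 9920 positions met the rule in 1 library, 1430 in 2 and 236 in 3.

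The base before the edited C was A or U in 94.6 and 94.4% of the positions in untreated replicates 1 and 2 and in 92.9 and 92.8% in CoCl2 replicates 1 and 2. APOBEC1 is known to prefer cytidines that follow A or U. Among other positions with 2 or more edited reads, the shares were 92.0, 90.8, 90.1 and 90.0%. This background has the same minimum of edited reads but was not matched for their number, for coverage or for gene. In every library the exact 95% interval of the several-isoform positions lay above that of the background (in CoCl2 replicate 2, for example, 91.8 to 93.7% against 89.6 to 90.4%). These intervals treat positions as independent, and the gap does not show a trait of the several-isoform positions. The median place along the coding sequence was 0.505, 0.505, 0.507 and 0.515 of its length in the 4 libraries, close to the 0.515, 0.520, 0.523 and 0.522 of the background.

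The positions were spread unevenly over genes. Of 1937 genes, 632 held 1 position, 339 held 10 or more, and the top 100 genes held 30.4% of all. PTBP1, a splicing repressor that binds pyrimidine tracts, held the most, 81 positions in all, with 60 and 24 in the untreated and 15 and 10 in the CoCl2 libraries. Its coverage was 878.5 and 444.5 reads untreated and 270.0 and 210.0 with CoCl2. UBA1, the main ubiquitin-activating enzyme, followed with 64 positions, of which 42 and 28 were seen untreated and 4 and 4 with CoCl2, at a coverage of 434, 223, 110 and 121 reads. Both genes thus had fewer positions and lower coverage in the CoCl2 libraries. APP, the amyloid precursor protein, held 60 positions (45 and 11 untreated, 16 and 13 with CoCl2), at 418, 257, 222 and 188 covering reads, so its CoCl2 libraries held more positions than untreated replicate 2 at lower coverage. PUF60, a splicing factor of the poly(U)-binding family, ran the other way, with 13 and 17 positions untreated and 28 and 24 with CoCl2, at 711, 800, 1325 and 1232 covering reads. No test was made of these gene counts.

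At a given position, the 2 best covered transcripts were compared directly. The shares differed widely, and in 89.8 to 92.0% of the tested positions the less covered transcript had the higher edited share. In untreated replicate 1 the median share was 0.645% of reads in the better covered and 1.72% in the less covered transcript. In untreated replicate 2 the medians were 0.662 and 2.08%, in CoCl2 replicate 1 0.672 and 2.13%, and in CoCl2 replicate 2 0.709 and 2.08%. The listing bears on this direction: an entry needs 1 edited read, so the lowest share that can be listed is 1 read over the coverage. In 55.5 to 60% of the tested positions both transcripts had exactly 1 edited read, and there the ratio of shares is the inverse of the ratio of coverage.

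The median log2 ratio of edited share, better over less covered transcript, was -1.25 and -1.41 in the untreated and -1.40 and -1.34 in the CoCl2 libraries. The group means were -1.33 ± 0.110 and -1.37 ± 0.0368 (SD, n = 2 each, exact permutation p = 1, two-sided). The median log2 coverage ratio of the same transcripts was 1.52, 1.57, 1.62 and 1.57. Across positions the share ratio and the coverage ratio had a Pearson correlation of -0.82, -0.84, -0.81 and -0.82 (n = 3057, 2467, 3058 and 2565 positions), given as a description, since coverage enters both axes and all positions of a panel share a library. A ratio per gene was also taken over the 283 transcript pairs described below. There unlisted entries counted as 0 edited reads, and edited reads were summed over the shared coding positions. The mean over libraries of its median log2 ratio was 0.09, not negative, but its unit, genes and filter differ from those of the positions.

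**Figure D1:**
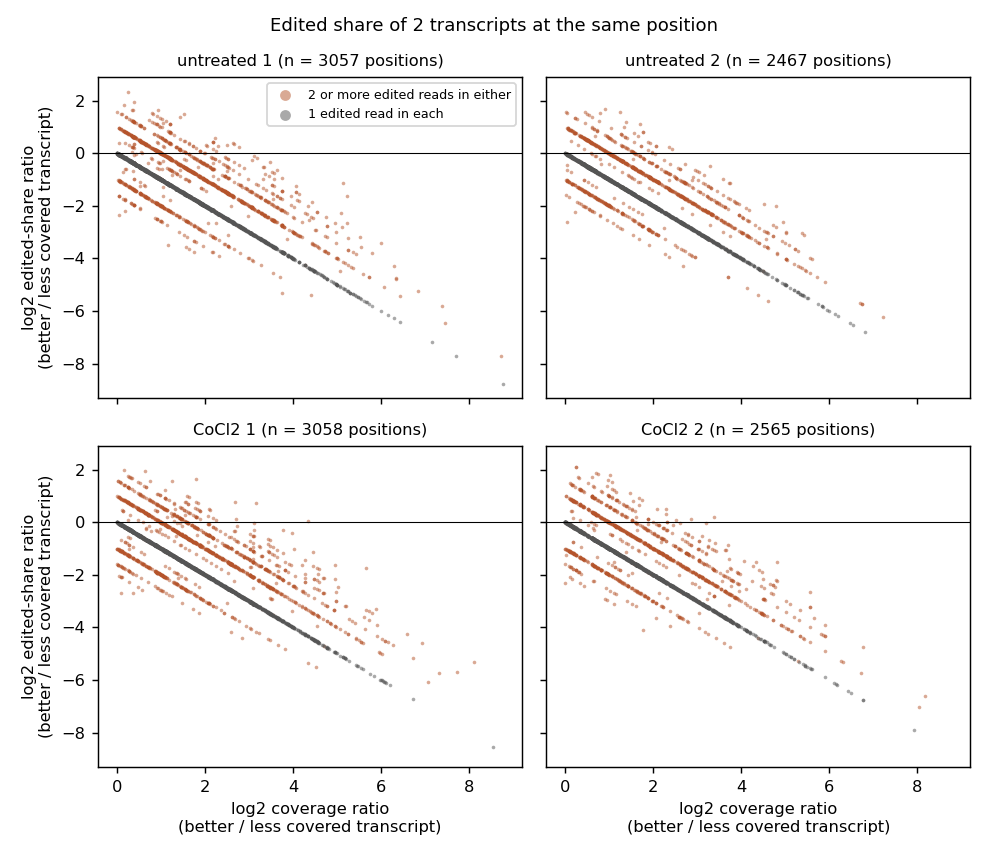
Each point is a position read in 2 transcripts of a gene with at least 10 reads on both, in 1 of the 4 libraries. The x axis is the log2 coverage ratio and the y axis the log2 ratio of edited share, better over less covered transcript. Grey points, with 1 edited read in each transcript, lie on the line of slope -1, and most orange points, with 2 or more edited reads in either, lie on parallel lines below 0 on the y axis.

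Fisher's exact test of edited and unedited reads between the 2 transcripts was run at positions listed under both, with at least 10 reads on both. It called 0 of 3057 and 0 of 2467 positions in untreated replicates 1 and 2 and 0 of 3058 and 0 of 2565 in CoCl2 replicates 1 and 2 (background share called 0.0% in each, Benjamini-Hochberg adjusted p under 0.05 within a library). At an unadjusted p under 0.05 there were 64, 51, 53 and 54 positions, and the lowest adjusted p was 0.959, 0.887, 0.886 and 0.909. Only the position of AP1M1, which encodes the medium subunit of the AP-1 clathrin adaptor, passed the unadjusted threshold in 2 libraries. There AP1M1-201 had 1 of 977 reads edited in untreated replicate 2 and AP1M1-203 1 of 17, and in CoCl2 replicate 1 the counts were 2 of 945 and 1 of 15 (unadjusted exact p = 0.0339 and 0.0462, adjusted p = 0.887 and 0.886). The less covered isoform thus rested on 1 edited read each time, the fewest that can be listed. The exact test makes no allowance for this minimum, so these p-values do not show an isoform difference. In CoCl2 replicate 2 AP1M1-201 had 1 of 886 reads edited and AP1M1-203 was not listed.

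The best measured positions show how far a single position can go. At the NME2 position, in the gene of a nucleoside diphosphate kinase, the main isoform NME2-205 had 11 of 463 reads edited (2.38%, exact 95% interval 1.19 to 4.21%) in untreated replicate 2. In CoCl2 replicates 1 and 2 it had 17 of 789 (2.15%, 1.26 to 3.43%) and 9 of 720 (1.25%, 0.573 to 2.36%). The second isoform NME2-202 had 3 of 63, 2 of 91 and 3 of 70 edited reads in the same libraries (4.76, 2.20 and 4.29%), and its wide intervals, such as 0.893 to 12% in CoCl2 replicate 2, contained the share of NME2-205 in each of the 3. The position is also listed under the readthrough transcript NME1-NME2, so reads of that gene cannot be told apart with certainty.

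At the ILK position, in the gene of integrin-linked kinase, both isoforms were well covered. ILK-203 had 2 of 260 reads edited in untreated replicate 2 and 4 of 438 and 2 of 372 in the CoCl2 libraries (0.769, 0.913 and 0.538%). ILK-201 had 4 of 265, 5 of 369 and 6 of 342 (1.51, 1.36 and 1.75%), higher in each of the 3 libraries, with an unadjusted exact p of 0.686, 0.739 and 0.162. The BCKDK position, in the kinase that inhibits branched-chain ketoacid dehydrogenase, gave 1 of 149, 9 of 261 and 7 of 220 edited reads for BCKDK-201 in untreated replicate 1 and CoCl2 replicates 1 and 2. For BCKDK-203 the counts were 2 of 157, 2 of 233 and 3 of 221, so BCKDK-201 was lower in the untreated library and higher in both CoCl2 libraries (unadjusted exact p = 1, 0.0671 and 0.221). At the MYL6 position, in a myosin light chain, MYL6-207 had 2 of 821, 11 of 1301 and 7 of 1251 reads edited and MYL6-218 2 of 286, 4 of 552 and 6 of 485 in untreated replicate 2 and the CoCl2 libraries. None of these differences passed the exact test after adjustment at this depth.

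Edits were therefore summed along the coding sequence that 2 isoforms of a gene share. For each gene the 2 best covered transcripts were paired, and edited reads at every shared coding position listed under either were added, with 0 where an entry was not listed. This takes in positions beyond those read in both isoforms. Because no position was listed in all 4 libraries, the 0s include positions that a library lacks under every isoform. Whether those were unedited there cannot be told, so levels of different libraries rest partly on different positions. Of 3611 pairs, 283 had at least 5 expected edited reads for each transcript in every library, and all 283 held positions read in several isoforms. The level of a transcript is its summed edited reads per 100 covering reads, and it can exceed 100 because many positions are added. Over the tested pairs the median log2 ratio, better over less covered transcript, was 0.11 (quartiles -0.21 and 0.36), and 270 of 283 pairs (95.4%) lay within 1 log2 unit of equal editing. In 9 of 283 pairs (3.18%) the difference passed the threshold (limma, adjusted p under 0.05). Editing was higher in the better covered transcript in 7 (GLB1, PIGS, RHBDD2, WBP2, SLC29A1, ACLY and SHMT2) and lower in 2 (AMZ2 and HDLBP). At an unadjusted p under 0.05 there were 41 pairs.

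These calls rest on the choice of model and on single libraries. A quasi-binomial logistic model of the same counts called 0 pairs (24 at an unadjusted p under 0.05). It takes the variance from the few values of each pair alone, where limma draws on all pairs. The power of the models was not compared. Without untreated replicate 1 limma called 5 pairs, 3 of them among the 9, and without untreated replicate 2 it called 1, IL17RA (log2 ratio -2.75), and 0 of the 9. Without CoCl2 replicate 1 or 2 it called 20 and 15, with 7 and 8 of the 9. Restricted to positions listed under both transcripts in the same library, 11 of 19 testable pairs were called, all lower in the better covered transcript, a direction that the need for 1 edited read in both favours. None of the 9 could be tested there. With at least 2 expected edited reads, which brought in 606 pairs, ACLY, SHMT2, AMZ2 and HDLBP were no longer called.

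**Figure D2:**
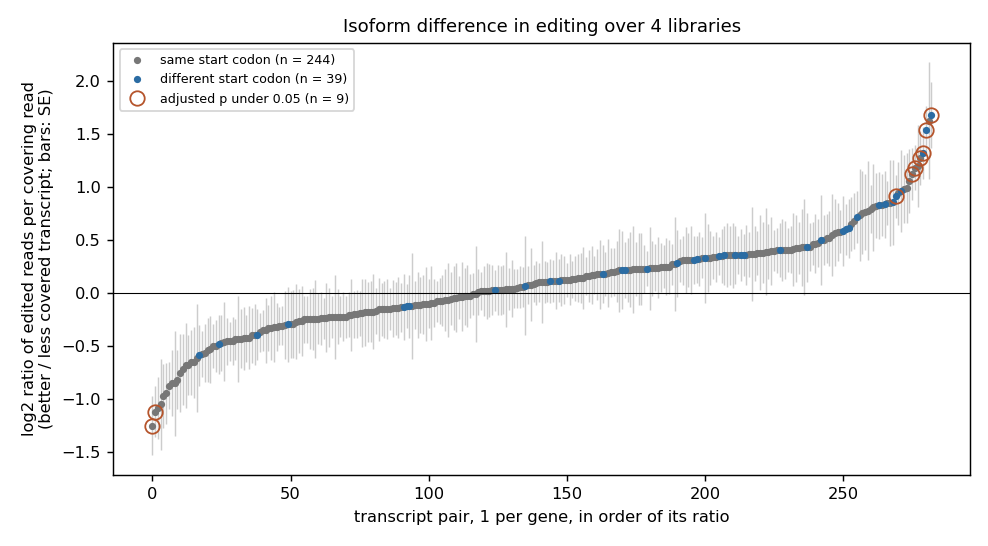
Each point is 1 of the 283 transcript pairs in order of its log2 ratio of edited reads per covering read (y axis, better over less covered transcript), with its standard error. Blue points are the 39 pairs that start translation at different start codons, and rings mark the 9 called pairs, 7 at the upper and 2 at the lower end.

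The largest ratio was that of GLB1, the lysosomal beta-galactosidase (GRCh38 chromosome 3, 32996608 to 33097230, minus strand). GLB1-201 carried 46.7 and 43.0 edited reads per 100 covering reads in the untreated and 61.2 and 66.1 in the CoCl2 libraries (98, 71, 71 and 84 edited reads). GLB1-203 carried 30.0, 10.7, 19.0 and 11.1 (9, 3, 4 and 2 edited reads on 18 to 30 covering reads). All values of GLB1-201 lay above all of GLB1-203, and the log2 ratio was 1.68 ± 0.31 (SE, n = 4 libraries, limma adjusted p = 0.0288). The isoforms start translation at different start codons and end at the same stop codon.

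PIGS, a subunit of the enzyme that attaches GPI anchors to proteins (chromosome 17, 28553387 to 28571872, minus strand), had the lowest adjusted p. PIGS-202 carried 56.7 and 44.4 edited reads per 100 untreated and 53.3 and 44.4 with CoCl2, and PIGS-203 15.9, 13.8, 14.3 and 24.4. The groups of values did not overlap, at a log2 ratio of 1.54 ± 0.23 (SE, limma adjusted p = 0.0193). RHBDD2, a membrane protein with a rhomboid domain (chromosome 7, 75878948 to 75888926, plus strand), showed the same order at lower levels. RHBDD2-201 had 15.5, 11.8, 20.4 and 15.9 edited reads per 100 in untreated replicates 1 and 2 and CoCl2 replicates 1 and 2, and RHBDD2-202 6.59, 4.30, 5.96 and 7.58. The log2 ratio was 1.32 ± 0.25 (SE, limma adjusted p = 0.0288). RHBDD2-202 has a coding sequence of 669 bases against 1092, and a 5′ untranslated region of 629 bases against 135.

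SHMT2, the mitochondrial serine hydroxymethyltransferase (chromosome 12, 57229327 to 57234931, plus strand), is the fourth called pair with different start codons. SHMT2-201 carried 21.7, 35.6, 30.5 and 40 edited reads per 100 and SHMT2-202 11.1, 13.1, 19.2 and 25.7, higher in SHMT2-201 within every library although the 2 ranges overlapped. The log2 ratio was 0.91 ± 0.20 (SE, limma adjusted p = 0.0455). The call held in 4 of the 12 alternatives tried on it. Over positions listed under both transcripts in any library its log2 ratio was 0.02 (limma adjusted p = 0.953).

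In 5 called pairs the coding sequences were identical, so that the isoforms differ only outside them. SLC29A1, the equilibrative nucleoside transporter ENT1 (chromosome 6, 44219505 to 44234151, plus strand), was the best covered. SLC29A1-206 had 8.32, 11.9, 14.5 and 10.7 edited reads per 100 on 841 to 967 covering reads, and SLC29A1-208 3.49, 6.54, 5.71 and 4.26 on 141 to 214. Its values did not overlap, at a log2 ratio of 1.18 ± 0.21 (SE, limma adjusted p = 0.0288). The 3′ untranslated regions are both 626 bases long, and the 5′ untranslated regions 189 and 332 bases.

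ACLY, the ATP citrate lyase that makes cytosolic acetyl-CoA (chromosome 17, 41866908 to 41918987, minus strand), carried the highest level among the pairs with higher editing of the better covered isoform. ACLY-201 had 95, 123.5, 106.1 and 90.0 edited reads per 100 and ACLY-207 65.8, 36.0, 46.7 and 41.2, without overlap (log2 ratio 1.13 ± 0.25 SE, limma adjusted p = 0.0455). In untreated replicate 1 the isoforms were closest, with a log2 ratio of 0.52 against 1.74, 1.15 and 1.09 in the other libraries.

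AMZ2, a zinc metalloprotease of the archaemetzincin family (chromosome 17, 68247574 to 68257156, plus strand), went in the opposite direction. AMZ2-202 had 10.3, 8.77, 13.8 and 11.4 edited reads per 100 on 195 to 228 covering reads, and the less covered AMZ2-203 27.7, 30.8, 29.8 and 19.4 on 47 to 84. The values did not overlap, and the log2 ratio was -1.25 ± 0.28 (SE, limma adjusted p = 0.0455). AMZ2-202 has a 5′ untranslated region of 1132 bases and AMZ2-203 of 110 bases, ahead of the same coding sequence of 1080 bases.

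HDLBP encodes vigilin, an RNA-binding protein with many KH domains (chromosome 2, 241229212 to 241315842, minus strand). Its 2 isoforms were covered alike (61, 52, 30 and 27 reads against 65, 47, 30 and 27), so the order of coverage rests on few reads here. HDLBP-204 carried 27.9, 30.8, 33.3 and 59.3 edited reads per 100 and HDLBP-201 75.4, 74.5, 96.7 and 74.1, again without overlap (log2 ratio -1.12 ± 0.24 SE, limma adjusted p = 0.0455). CoCl2 replicate 2 had the smallest difference of the 4, with a log2 ratio of -0.31.

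**Figure D3:**
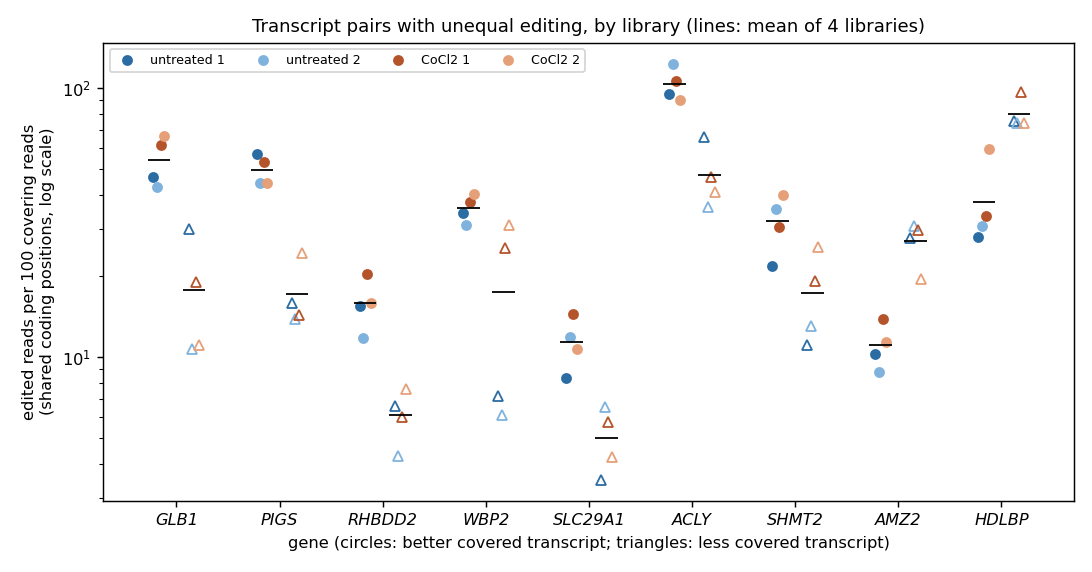
Edited reads per 100 covering reads (y axis, log scale) of the better covered (circles) and less covered (triangles) transcript of the 9 called pairs, 1 symbol per library, with the mean of 4 libraries as a line. Circles and triangles are apart in 7 genes, and they overlap in WBP2 and SHMT2.

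The gene models of the called pairs were set beside those of all tested pairs. The stop codon was shared in 9 of 9 and in 244 of 283 pairs, and 8 of 9 had 3′ untranslated regions within 25 bases of each other in length, against 156 of 283. These counts are a description and were not tested. Pairs with different start codons held 4 of the 9 calls (4 of 39), and pairs with the same start codon 5 (5 of 244). In the 39 pairs with different starts the median log2 ratio was 0.35, and 32 were above 0, against a median of 0.04 and 133 of 244 in the pairs with the same start. By library the medians were 0.60 and 0.29 untreated and 0.25 and 0.26 with CoCl2 in the first class, and 0.02, 0.11, 0.02 and 0.06 in the second. All 4 medians of the first class lay above all 4 of the second. The difference between the classes was not tested. Of the 38 pairs with different starts and unequal coding length, the transcript with the longer coding sequence was more edited in 29, over the sequence both contain. The same count was 50 of 130 in pairs with the same start and 79 of 168 over all pairs. Lengths and codons are those of GENCODE 29, in which 41.2% of the listed transcripts have the version named in the files.

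The CoCl2 comparison asked whether treatment shifted editing from 1 isoform to the other. It changed the isoform difference of 0 of 283 pairs (0.0%, limma adjusted p under 0.05). At an unadjusted p under 0.05 there were 8 pairs, with a lowest adjusted p of 0.982. The quasi-binomial model called 0 as well (17 at an unadjusted p under 0.05). The median change was -0.01 with a median standard error of 0.53 log2 units per pair. Without CoCl2 replicate 2, limma called 1 pair, ABCB8, a transporter of the mitochondrial inner membrane.

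The 8 nominal pairs are named with their values, chosen after these were seen. WBP2, a transcriptional coactivator with a binding motif for WW domains (chromosome 17, 75845699 to 75856507, minus strand), is also among the 9 pairs with unequal isoforms. WBP2-215 carried 34.3 and 31.0 edited reads per 100 untreated and 37.7 and 40.4 with CoCl2. WBP2-201 carried 7.14 and 6.06 untreated and 25.5 and 31.0 with CoCl2, so the untreated libraries were apart from the CoCl2 libraries in the second isoform. The log2 ratio was 2.04 and 2.13 untreated and 0.55 and 0.37 with CoCl2, a change of -1.62 ± 0.51 (SE, limma unadjusted p = 0.0107, adjusted p = 0.982). The untreated values of WBP2-201 rest on 2 edited reads each, on 28 and 33 covering reads. Over all libraries its isoform ratio was 1.27 ± 0.25 (SE, limma adjusted p = 0.0387).

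ASL, the urea cycle enzyme argininosuccinate lyase, had a pattern like that of WBP2. Its better covered isoform carried 75 and 63.0 edited reads per 100 untreated and 77.2 and 48.4 with CoCl2, and the other 10.0, 25, 65.4 and 56.7 (limma change -1.87, adjusted p = 0.982). The untreated values of the less covered isoform rest on 1 and 3 edited reads, on 10 and 12 covering reads. In ABCB8 the less covered isoform carried 163.6 and 114.3 untreated and 21.1 and 57.1 with CoCl2, and the better covered one 31.4, 22.7, 44.4 and 35.7 (limma change 2.45, adjusted p = 0.982). The less covered isoform of ABCB8 had only 11 and 14 covering reads untreated and 19 and 14 with CoCl2. MYO1C, an unconventional myosin, was well covered in untreated replicate 1 only (185 and 142 reads, and 43 to 63 in the other libraries). Its less covered isoform had 87.3 and 107.7 edited reads per 100 untreated and 51.2 and 50 with CoCl2, beside 80.0, 82.5, 81.5 and 86.5 in the better covered one (limma change 0.97, adjusted p = 0.982). The other nominal pairs were CTNNB1 (-1.25), MED15 (-1.31), RPS6KA4 (-1.05) and IFIT3 (1.12), by their limma log2 changes.

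The coverage of the same isoforms was compared between CoCl2 and untreated libraries, as a measure of their relative abundance. It is the median over the listed positions of a transcript in that library, so the positions that enter it depend on editing. In bulk RNA, fewer cells with a transcript and less of it per cell cannot be told apart. In 8 of 283 pairs (2.83%) the coverage ratio changed (limma, adjusted p under 0.05), 3 toward the better covered transcript and 5 toward the other, and 32 passed an unadjusted p under 0.05. None of the 8 was among the 9 pairs with unequal editing. Without untreated replicate 2 there were 27 calls, which included all 8, and without untreated replicate 1 there were 12, which also included all 8.

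BUB3, a protein of the spindle checkpoint (chromosome 10, 123154277 to 123170467, plus strand), had the lowest adjusted p. The long isoform BUB3-203, with a 3′ untranslated region of 6635 bases, made up 62.1 and 57.7% of the covering reads of the pair untreated and 43.6 and 44.0% with CoCl2 (log2 change -0.94 ± 0.13 SE, limma adjusted p = 0.00209). BUB3-201, with 312 bases, took the rest. Edited reads per 100 covering reads were 5.32, 7.77, 8.90 and 11.3 in BUB3-203 and 8.73, 11.0, 11.9 and 12.4 in BUB3-201. They were higher in the short isoform in every library (log2 ratio -0.44 ± 0.19 SE, limma adjusted p = 0.337).

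GRB2, the adaptor that links receptor tyrosine kinases to Ras signalling, also moved to the shorter isoform. GRB2-202 fell from 79.3 and 74.9% of the pair to 60.8 and 59.1% (-1.18 ± 0.23 SE, limma adjusted p = 0.0105) in favour of GRB2-212, which the annotation lists as a target of nonsense-mediated decay. BCCIP, a partner of BRCA2, went from 66.8 and 58.4% of BCCIP-203 to 42.6 and 48.2% (-1.02 ± 0.21 SE, limma adjusted p = 0.0121). For CTNNAL1, alpha-catulin, the share of CTNNAL1-201 was 97.2 and 94.1% untreated and 86.2 and 88.8% with CoCl2 (-1.73 ± 0.33 SE, limma adjusted p = 0.0105). Its coverage went from 1208 and 680 to 370 and 318 reads, while CTNNAL1-204 stayed between 35 and 59.

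In 3 genes the better covered isoform gained. NECTIN2-202 of the adhesion receptor NECTIN2 rose from 50.6 and 59.6% to 69.2 and 69.9% of the pair (log2 change 0.89 ± 0.15 SE, limma adjusted p = 0.00678). ACTG1-214 of gamma-actin rose from 84.8 and 85.8% to 89.9 and 90.5% (0.67 ± 0.13 SE, limma adjusted p = 0.0105). ACTG1-214 is annotated as a target of nonsense-mediated decay although it was the better covered isoform. MTCH1-201 of the mitochondrial carrier homolog MTCH1 changed least, from 48.7 and 49.3% to 51.6 and 52.9%, on 1357 to 2095 reads (0.19 ± 0.04 SE, limma adjusted p = 0.0262).

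In 7 of the 8 genes, all but CTNNAL1, the change was toward the shorter transcript. Read-weighted transcript length over all listed isoforms came to 2803 and 2576 bases untreated and to 2313 and 2326 bases with CoCl2, without overlap (exact permutation p = 0.33, the smallest possible). Across the 283 pairs the slope of the coverage change on the length ratio was -0.13 log2 units per doubling, and the same slope between the 2 untreated libraries, replicate 2 minus 1, was -0.10. With the trend on length taken out all 8 were called again. Without CoCl2 replicate 2 ACTG1, MTCH1 and GRB2 were not called, and without CoCl2 replicate 1 BCCIP was not.

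**Figure D4:**
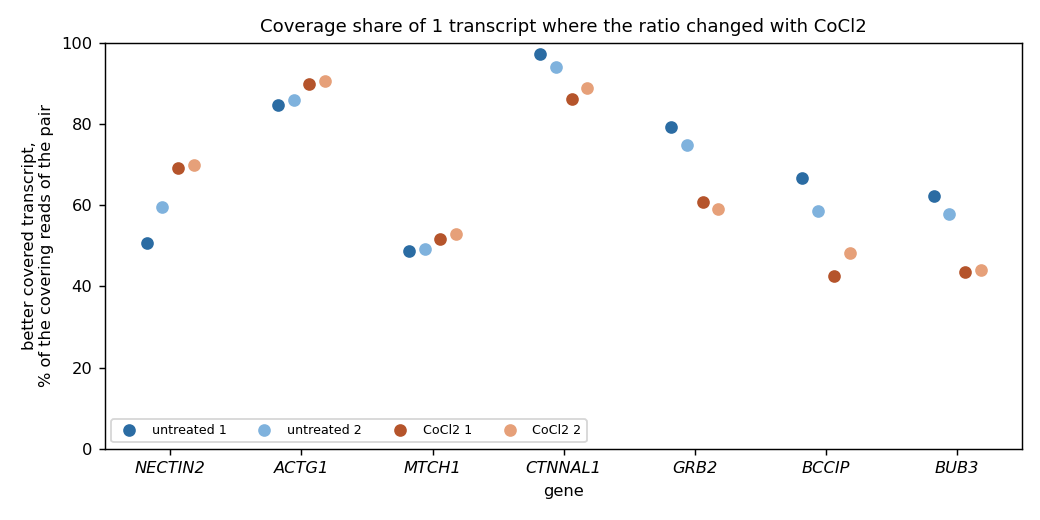
Share of the covering reads of a transcript pair that fell on the better covered transcript (y axis, percent) in each of the 4 libraries, for 7 of the 8 genes whose coverage ratio changed with CoCl2. Untreated (blue) and CoCl2 (brown) libraries do not overlap in any of the 7, and the gap is smallest in MTCH1.

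Gene groups relevant to this line and treatment were followed through the same pairs. None of the tested members of 5 lists was called for the isoform difference or its CoCl2 change, against 3.18 and 0.0% of all pairs. Splicing and RNA-binding genes had the most, 461 positions read in several isoforms in 26 of 40 listed genes and 11 tested pairs. Their median log2 ratio was 0.14, against 0.11 over all pairs, and ran from -0.75 in HNRNPF to 0.86 in HNRNPUL1. PTBP1, with the most positions of all genes, had nearly equal isoforms: PTBP1-203 carried 44.6, 39.1, 41.4 and 24.4 edited reads per 100 and PTBP1-201 46.5, 35.5, 31.2 and 38.2 (log2 ratio -0.04 ± 0.20 SE, limma adjusted p = 0.929). The remaining members of this list were RBM39, HNRNPU, HNRNPK, HNRNPC, U2AF2, HNRNPM, HNRNPR and HNRNPAB, with log2 ratios from -0.48 (HNRNPR) to 0.32 (HNRNPC).

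Among ribosomal proteins 44 of 80 listed genes held such positions (255 positions), and 5 pairs were tested, with a median log2 ratio of 0.32. RPLP0, of the ribosomal stalk, was the best covered of them, with 3.85, 6.23, 7.10 and 6.27 in RPLP0-203 and 6.25, 7.22, 9.83 and 9.65 in RPLP0-201 (log2 ratio -0.49 ± 0.21 SE, limma adjusted p = 0.295). RPLP0-201 was higher in each of the 4 libraries. RPL10 (-0.29) and RPL17 (0.34) were among the other tested pairs.

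Translation factors held 221 positions in 28 of 65 genes, with 3 pairs tested. EIF6, which keeps the ribosomal subunits apart, had a log2 ratio of 0.68 ± 0.26 (SE, limma adjusted p = 0.262). EIF6-203 carried 8.27, 8.24, 10.8 and 10.0 edited reads per 100 and EIF6-201 2.15, 5.56, 9.13 and 9.45, so the isoforms were closer in the CoCl2 libraries (limma change -1.04, adjusted p = 0.982). EIF3B, of the eIF3 scaffold, and EIF2B3, of the exchange factor for eIF2, had log2 ratios of 0.34 and -0.43. In the cytoskeleton list, 64 positions in 14 of 26 genes, ACTG1, whose coverage ratio changed, alone could be tested for editing (log2 ratio 0.52 ± 0.26 SE, limma adjusted p = 0.364).

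Genes of the hypoxia-inducible factor and of glycolysis, the pathway that CoCl2 is used to turn on, held 70 positions in 7 of 26 listed genes. P4HA2, a collagen prolyl hydroxylase, and the enolase ENO2 could be tested. P4HA2-202 carried 31.9, 34.5, 37.1 and 48.1 edited reads per 100 and P4HA2-205 34.8, 21.2, 77.3 and 46.7 (log2 ratio -0.11 ± 0.31 SE, limma adjusted p = 0.843). ENO2-211 carried 35.7, 29.6, 23.1 and 35 and ENO2-201 25.3, 26.3, 40.5 and 29.1 (0.03 ± 0.23 SE, limma adjusted p = 0.942). Neither order of the isoforms held in all 4 libraries. In glycolysis the position of the aldolase ALDOA shown above was read mainly in ALDOA-221 (11 of 1367, 14 of 2818 and 15 of 2443 reads edited in untreated replicate 2 and CoCl2 replicates 1 and 2). In each library it stood beside 1 or 2 edited reads of a different, thinly covered isoform of 1 to 52 reads.

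PLAUR, the urokinase receptor, a surface protein that marks this line, held 13 positions read in several isoforms. PLAUR-203 carried 5.36 and 3.99 edited reads per 100 untreated and 7.08 and 8.90 with CoCl2, on 280 to 483 covering reads. PLAUR-202, with a coding sequence of 843 against 1005 bases and a different stop codon, carried 26.3, 25.9, 27.9 and 30.8 on 19 to 43 reads. The values did not overlap, but those of PLAUR-202 rest on 5, 7, 12 and 12 edited reads. The pair fell under 5 expected edited reads in every library, so no test was made.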

How the data were processed

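Coding-sequence edits were read from 4 long-read (PacBio) libraries of polyadenylated RNA, 2 untreated and 2 CoCl2-treated. The authors deposited 1 file per library without a header, in which a cell holds 2 whole-number counts, edited reads and coverage, per position and transcript (read from the values). The sources used here do not give the aligner, edit caller or filters, and hg19 and hg38 are both named per the submitters' processing notes. Coordinates fit GRCh38: 99.7% of entries lay in the coding sequence of their own transcript in GENCODE 29, which holds 95.3% of the listed transcripts.

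Members and lists were chosen with earlier results of these data known. Named genes were the called pairs with 1 sign in all 4 libraries, called changes of CoCl2 without overlap, PLAUR and the tested list members. No position passed in 2 libraries, so the sequences were chosen after their values were seen. Positions were tested with Fisher's exact test (scipy 1.17.1, two-sided). A transcript's coverage is the median over its listed entries, each of which holds at least 1 edited read. A pseudocount of 1 edited read was split by coverage, and log2 ratios were tested with limma 3.58.1 (R 4.3.3, trend on expected edited reads), adjusted by Benjamini-Hochberg over all 283 pairs, at 0.05. Pseudoautosomal transcripts of chromosome Y repeat those of X. They stay among the members (16 positions) and were left out of the pairs. A few genes that the naming rule gives are not reported here. The scripts were tested on simulated data. Alternatives were the position set, expected reads, pseudocount, model, coverage minimum, length term, replicate block and each library left out.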

Additional observations from a re-analysis of the deposited data

How the results depend on the processing

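Depth is 1 limit: most entries hold 1 edited read, and 283 of 3611 pairs could be tested. Of the 97 tests of the 9 pairs with unequal editing under other settings, 63 kept the call, 34 lost it and 0 changed sign, and of the 56 for the 8 coverage pairs 50 kept it, 6 lost it and 0 changed sign. The count of pairs with unequal editing (9) was 0 with the quasi-binomial model and ran from 1 to 20 when 1 library was left out. The other settings gave 8 to 11, but with positions listed under both transcripts in the same library or in any library all calls (11 and 10) were lower in the better covered transcript. The count of CoCl2 changes (0) ran from 0 to 1 when 1 library was left out and was 0 otherwise. The count of coverage changes (8) ran from 7 to 27 when 1 library was left out. The replicate block gave 13 coverage changes, 10 pairs with unequal editing and 0 CoCl2 changes. Under it MTCH1 lost its coverage call (limma adjusted p = 0.0768) and SHMT2 its editing call (0.0604). Libraries of the same number share only that number: the correlation of their deviations was 0.02 for the editing ratio and -0.05 for the coverage ratio over 283 pairs. The mean of the median log2 share ratio at positions (-1.35) was -1.18 with at least 20 reads. The gene-level ratio of the 283 pairs, with unlisted entries taken as 0, had a mean of medians of 0.0859. It differs from the position ratio in unit, genes and filter as well. The Fisher test called 0 positions in each library under every setting tried, with 13 to 46 positions at an unadjusted p under 0.05 with 20 reads or with 4 edited reads in all. The cause of these changes was not tested, other than that leaving out a library leaves 1 in its group, which is assumed to vary like the other 2.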

Other observations

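In the untreated libraries 18 and 15 positions, and in the CoCl2 libraries 27 and 51, were listed under 2 different genes. Among them is the NME2 position above, which also stands under NME1-NME2 (1 of 14 reads edited in untreated replicate 2, 2 of 91 and 2 of 37 in the CoCl2 libraries). IL17RA, the interleukin-17 receptor, fell short of 5 expected edited reads in untreated replicate 2 and so was not among the 283 tested pairs. Its less covered isoform carried 107.1 and 22.2 edited reads per 100 in untreated replicates 1 and 2 and 136.4 and 131.2 in the CoCl2 libraries, and the better covered isoform 10.0, 15.2, 22.5 and 30.8. RPS6KA4, a kinase downstream of MAP kinases, had 28.2 and 23.7 untreated and 22.6 and 28.5 with CoCl2 in its better covered isoform, and 20.4, 15.4, 33.0 and 40 in the other. IFIT3, an interferon-induced gene, had 8.61 and 6.06 untreated and 13.1 and 16.5 with CoCl2 in the better covered isoform, beside 16.0, 12.7, 12 and 14.1. For CTNNB1, beta-catenin, the less covered isoform had 62.1, 47.8, 88.9 and 105.3 and the better covered one 61.0, 62.1, 42.1 and 45.5.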
